A study of Mus musculus with 12 samples.

Results

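The cytochrome P450 genes of the Cyp1, Cyp2 and Cyp3 families encode the monooxygenases that start the breakdown of most drugs and many dietary chemicals in the liver. The genes described here are the protein-coding genes whose GENCODE M21 symbol starts with Cyp1, Cyp2 or Cyp3 followed by a letter, with 1 gene of the Cyp2d subfamily left out, together with Por, Nr1i2, Nr1i3 and Ahr. These were 64 of the 53465 genes in the count table: 60 P450 genes in 17 subfamilies (3 in Cyp1, 48 in Cyp2 and 9 in Cyp3) and 4 genes for their electron donor and their regulators. RNA was measured by RNA-seq in whole liver of C57BL/6N mice that were 3 months old (young), 12 months old (middle-aged) or 18 months old (aged). Each age had 4 livers, each from 1 animal. The study's methods give the mice as males fed a standard diet without restriction, and the labels list no treatment or genetic change. The paper describes RNA-seq of its own for 4 young and 4 old livers. Its RNA-seq of 3 ages came from the public Tabula Muris Senis atlas. Whether the methods' account of the mice covers all 12 livers is therefore uncertain. The comparisons ask how the steady-state mRNA of these enzymes differs between the ages.

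A P450 enzyme is anchored in the membrane of the endoplasmic reticulum and uses a heme iron to insert an oxygen atom into its substrate, with electrons passed from NADPH by a reductase, the product of Por. Several of these genes are switched on by foreign chemicals. The aryl hydrocarbon receptor (Ahr) acts mainly on Cyp1 genes, and the nuclear receptors CAR (Nr1i3) and PXR (Nr1i2) act mainly on Cyp2b, Cyp2c and Cyp3a genes. In mouse liver many Cyp2 and Cyp3 genes also differ between the sexes, following the pattern of growth hormone release, and several are made mostly by the hepatocytes around the central vein.

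Counts assigned to genes ranged from 8124312 to 10527159 per liver, and values below are DESeq2 size-normalised counts unless stated otherwise. A gene with 0 counts may still have been present at the level of 3 counts, which in these livers corresponded to between 2.62 and 3.82 normalised counts. Young replicate 2 stood apart by its share of mitochondrially encoded counts (19.2%, against 5.48 to 10.7% in the others) and young replicate 3 by its number of detected genes (22284, against 16361 to 19982). The proportions of 31 spike-in transcripts (synthetic RNA added to each sample) split the libraries into replicates 1 and 2 and replicates 3 and 4 of every age: the lowest correlation of their log2 shares was 0.997 within these pairs and the highest was 0.925 between them. Each pair of replicates therefore holds 2 livers of every age, and values within each pair are given for the main results. The hepatocyte markers Alb, Ttr, Apoa1 and Tat summed to between 680188 and 925971 normalised counts in every liver, and of the 4 pancreatic acinar markers the sum was at most 10.04. In whole tissue, fewer cells of a type and less RNA per cell cannot be told apart.

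Of the 60 P450 genes, 52 had at least 1 count in some liver, 38 had a mean of at least 10 normalised counts and 20 had a mean of at least 1000. The 8 genes at 0 in all 12 livers were Cyp2b19, Cyp2b23, Cyp2d34, Cyp2j7, Cyp2j11, Cyp2w1, Cyp3a41a and Cyp3a41b. The last pair share nearly their whole transcript: 98.6% of the 50-base windows of Cyp3a41a also occur in other genes, so reads that match both could have been left uncounted. All P450 genes described here together took 1.43% ± 0.24 (SD, n = 4) of gene counts in young livers, 1.58% ± 0.0907 in middle-aged livers and 1.68% ± 0.0459 in aged livers. The lowest share, 1.11%, was in young replicate 2, the liver with the high mitochondrial share, and the other 11 livers did not exceed 1.73%.

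Levels of different genes were compared per kb of annotated exon. On this scale Cyp2e1 (chromosome 7, 140763739 to 140774987), the enzyme that oxidises ethanol and acetaminophen, was first at each age, at 20707 normalised counts per kb in young livers, 22672 in middle-aged livers and 24930 in aged livers. By the mean over all 12 livers Cyp2d10 was next, at 4514, 4725 and 4822, followed by Cyp2c29, a CAR-inducible enzyme, at 3764, 4978 and 4981, and the order of these genes differed between the ages. The length used counts all annotated exons, which for Cyp2c29 is 3061 bases, against 1783 in its longest protein-coding transcript. For Cyp2d10 both lengths are 1648 bases, so their order and the subfamily shares depend on the length used. By subfamily, the single Cyp2e gene held 34.5% of the summed P450 level per kb, the 15 Cyp2c genes 31.9%, the 7 Cyp2d genes 12.9% and the 4 Cyp2a genes 4.97%. The Cyp1a pair held 4.83% ± 0.41 in young livers, 3.14% ± 0.32 in middle-aged and 2.61% ± 0.55 in aged livers. The 5 Cyp2b genes held 0.0105% ± 0.0063 in young livers and 0.259% ± 0.312 in aged livers, and the SD in aged livers exceeded their mean.

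**Figure D1:**
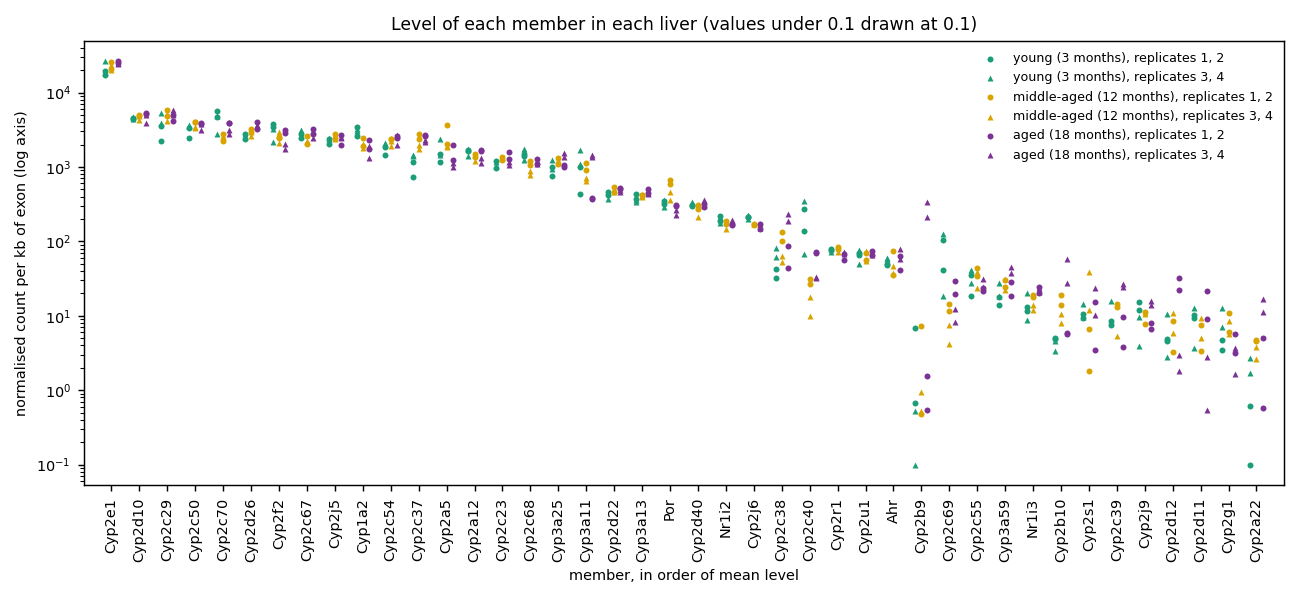
Level of the 42 members whose mean reached 10 normalised counts in each of the 12 livers. The horizontal axis lists members in order of mean level and the vertical axis gives normalised counts per kb of exon on a log scale; circles are replicates 1 and 2 and triangles replicates 3 and 4, coloured by age, and values under 0.1 are drawn at 0.1. Cyp2e1 lies above the other members in every liver, and the 4 aged livers lie far apart for Cyp2b9.

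Between aged and young livers, 9 of the 45 members that could be tested differed at a DESeq2 adjusted p below 0.05. Cyp2a22, Cyp2b9, Cyp2b10, Cyp2c37 and Cyp2d26 were higher in aged livers, and Cyp1a2, Cyp2c40, Cyp2c69 and Cyp2j6 were lower. The members called were 20% of those tested, against 3.58% of all genes tested. The 5 higher members were 11.1% of those tested, against a background of 1.87%, and the 4 lower members were 8.89%, against 1.71%. The median log2 fold change was 0.095 over the tested members and -0.0003 over all genes tested, and 29 of the 45 members lay within 0.5 log2 units of no change. Without the aged livers of replicates 3 and 4, a setting chosen after the values were seen, 5 members were called, of which 4 were among the 9, while the calls over all genes fell from 484 to 183.

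Between middle-aged and young livers, 8 of 40 tested members were called (20%, against 6.41% of all genes tested). Only 2 were higher, Cyp2c37 and Por (5% of members, against 3.51%). The other 6, Cyp1a2, Cyp2c40, Cyp2c68, Cyp2c69, Cyp2c70 and Cyp2j6, were lower (15%, against 2.9%). The members Cyp1a2, Cyp2c37, Cyp2c40, Cyp2c69 and Cyp2j6 were called in both comparisons, which share the 4 young livers. Between aged and middle-aged livers 1 of 38 tested members was called, Por, which was lower in aged livers (2.63%, against 1.14% of all genes, with 0.537% higher and 0.606% lower). A likelihood ratio test over the 3 ages called 11 of 44 members (25%, against 6.96% of all genes tested), and 12 members were called in at least 1 of the 4 tests. No share over all genes is given for that last count or for the members called in both comparisons.

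**Figure D2:**
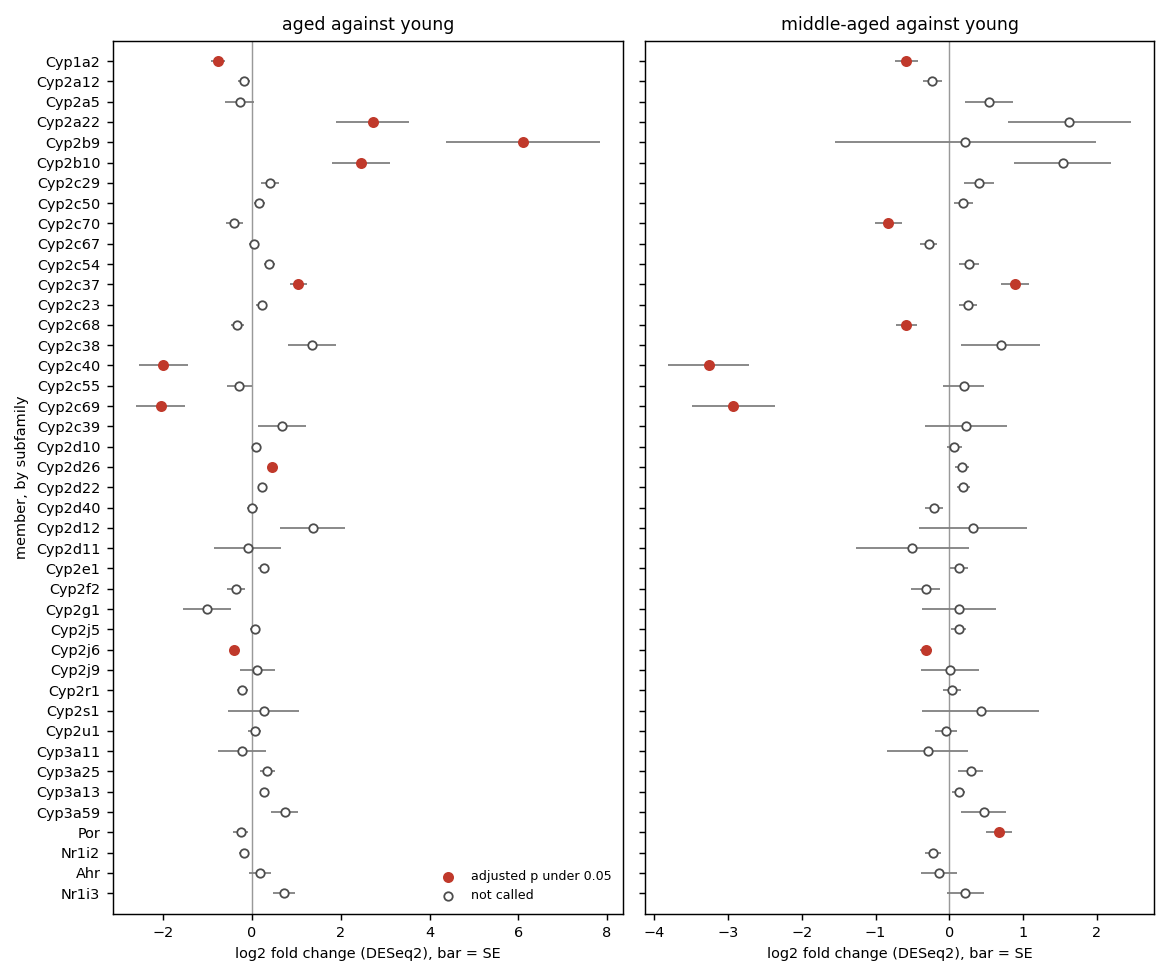
DESeq2 log2 fold change of the 42 members whose mean reached 10 normalised counts, aged against young on the left and middle-aged against young on the right. Points are fold changes and bars standard errors; filled points have an adjusted p below 0.05. The called members are spread over both sides of 0, and most members lie near it.

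The regulators and the electron donor are taken first. Por (ENSMUSG00000005514, chromosome 5, 135670033 to 135735326, GRCm38) was at 1404, 1263, 1162 and 1434 normalised counts in young replicates 1 to 4. It was at 2401, 2708, 1442 and 1844 in middle-aged livers and at 1249, 1189, 908 and 1057 in aged livers. All middle-aged livers lay above all young and all aged livers, although middle-aged replicate 3 exceeded the highest young liver by little. Por was 1.59-fold higher in middle-aged than in young livers (log2 fold change 0.67, SE 0.18 and DESeq2 adjusted p = 0.0058) and 1.91-fold lower in aged than in middle-aged livers (log2 fold change -0.93, SE 0.18 and DESeq2 adjusted p = 9.5e-05). Within replicates 3 and 4 alone the log2 fold change of middle-aged against young was 0.33 (DESeq2 adjusted p = 0.36), and without middle-aged replicate 2 the comparison was not called. Aged against young livers gave -0.26 (SE 0.18, DESeq2 adjusted p = 0.52).

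Ahr was at 294 to 373 normalised counts in young livers, 219 to 461 in middle-aged and 256 to 495 in aged livers, and none of its comparisons was called. Nr1i2 was at 457 to 561, 376 to 478 and 426 to 493, also without a call. Nr1i3 was at 57.3, 50.9, 39.1 and 89.8 in young replicates 1 to 4, at 78.4, 85.3, 53.0 and 61.1 in middle-aged livers, and at 106, 89.6, 106 and 92.1 in aged livers. The aged livers were the most alike, and only young replicate 4 of the young livers reached their range. The log2 fold change of aged against young was 0.72 (SE 0.25, DESeq2 adjusted p = 0.084), and edgeR gave an adjusted p of 0.013. Tomm40l overlaps Nr1i3 on the opposite strand, and whether counting used strand is not given in the sources used here.

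By DESeq2, 0 of 15 tested partners and co-regulators of these receptors (16 listed) were called between any pair of ages. Between aged and young livers 4 of them had an unadjusted p below 0.05 (Rxrg, Nr1h4, Ppargc1a and Ncor1), and edgeR called 1, Ppargc1a. Between middle-aged and young livers 3 had an unadjusted p below 0.05 (Rxrg, Hnf4a and Nr0b2), and edgeR called 1, Nr0b2. Between aged and middle-aged livers Nr0b2 alone had an unadjusted p below 0.05 and was called by edgeR. Rxra, the shared partner of CAR and PXR, was at 2939 to 3627 normalised counts in all 12 livers, and Arnt, the partner of the aryl hydrocarbon receptor, was at 204 to 331. Alas1, which makes the first precursor of heme, ranged from 421 to 2715 normalised counts and was not called by DESeq2 (aged against young, log2 fold change -1.35, SE 0.45 and DESeq2 adjusted p = 0.066), while edgeR called it. Of the 3 tested AHR targets outside the P450 genes (5 listed), DESeq2 and edgeR both called 0 between aged and young livers, and 0 had an unadjusted p below 0.05. The median log2 fold change of aged against young was 0.046 for the partners and 0.30 for the AHR targets, against -0.0003 for all genes tested.

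Clock output genes moved between the same ages as Por. Dbp, a clock-controlled transcription factor with known P450 targets, was at 130 to 220 normalised counts in young livers, 503 to 909 in middle-aged and 18.4 to 173 in aged livers. It was higher in middle-aged than in young livers (log2 fold change 1.96, SE 0.56 and DESeq2 adjusted p = 0.014) and lower in aged than in middle-aged livers (log2 fold change -2.78, SE 0.56 and DESeq2 adjusted p = 0.00036). Tef, a related factor, had log2 fold changes of 0.91 and -1.27 in these comparisons (DESeq2 adjusted p = 0.0018 and 5.8e-06). Nfil3, a repressor at the same DNA sites, had -1.01 and 1.53 (DESeq2 adjusted p = 0.00069 and 1.6e-08), and Arntl, the core clock factor BMAL1, had 1.56 in aged against middle-aged livers (DESeq2 adjusted p = 0.012). Hlf, the third factor of the Dbp family, was not called (0.46, DESeq2 adjusted p = 0.10, middle-aged against young). Of the 8 clock genes listed, 3 were called between middle-aged and young livers, 4 between aged and middle-aged livers and 0 between aged and young livers, where 3 (Nfil3, Arntl and Per1) had an unadjusted p below 0.05 and edgeR called 4, those and Dbp. The hour at which the livers were taken is not given in the sources used here, and the part of the clock in the Por values was not tested.

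Cyp1a2 (ENSMUSG00000032310, chromosome 9, 57676937 to 57683703), the enzyme that clears caffeine and a target of the aryl hydrocarbon receptor, was lower in livers of both older ages. Normalised counts were 6953, 5170, 6080 and 6439 in young replicates 1 to 4, 3802, 4886, 4149 and 3610 in middle-aged livers and 4581, 3462, 2617 and 3903 in aged livers. Every young liver lay above every older one. The gene was 1.69-fold lower in aged than in young livers (log2 fold change -0.76, SE 0.16 and DESeq2 adjusted p = 0.00037) and 1.498-fold lower in middle-aged than in young livers (log2 fold change -0.58, SE 0.16 and DESeq2 adjusted p = 0.0096). It was also lower within each pair of replicates, by log2 fold changes of -0.59 in replicates 1 and 2 (DESeq2 adjusted p = 0.22) and -0.94 in replicates 3 and 4 (DESeq2 adjusted p = 4.6e-07). Aged and middle-aged livers overlapped (log2 fold change -0.18, DESeq2 adjusted p = 0.84).

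Its neighbour Cyp1a1, which is nearly silent without an inducer, was at 2.12 to 10.7 normalised counts in young livers, 1.99 to 7.18 in middle-aged and 0 to 2.01 in aged livers. The aged values, and the lowest young and middle-aged ones, lay within what 3 counts represent. Cyp1a1 was not called (log2 fold change of aged against young -2.45, SE 1.03 and DESeq2 adjusted p = 0.18). Cyp1b1, the extrahepatic member of the family, was at 1.93 to 35.3 and was not called.

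The largest fold change among the called members was that of a Cyp2b gene in aged livers, and it rested on the aged livers of replicates 3 and 4. Cyp2b9 (ENSMUSG00000040660, chromosome 7, 26173411 to 26210661), which in adult mice is made mainly by female liver, was at 12.7, 1.27, 0 and 0.976 normalised counts in young replicates 1 to 4 and at 13.9, 0.898, 1.77 and 1.002 in middle-aged livers. In aged livers it was at 1.004, 2.89, 629 and 398. The aged livers of replicates 3 and 4 lay far above all 10 other livers, while those of replicates 1 and 2 lay within the young range. The log2 fold change of aged against young was 6.10 (SE 1.73, DESeq2 adjusted p = 0.020), and it was -1.85 with replicates 1 and 2 alone and 9.90 with replicates 3 and 4 alone (DESeq2 adjusted p = 1.5e-09, and none given by DESeq2 for replicates 1 and 2). Without the aged livers of replicates 3 and 4 it was -0.95, again with no adjusted p, and no adjusted p was given without either 1 of them alone. The call was also lost without young replicate 2, 3 or 4 (DESeq2 adjusted p = 0.099, 0.056 and 0.062). By edgeR the adjusted p over all livers was 1.2e-105, although aged replicates 1 and 2 lay within the young range. Small edgeR values here and below therefore do not show that the livers of an age were alike.

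Its close relative Cyp2b13 (ENSMUSG00000040583, chromosome 7, 26061497 to 26096197) followed the same livers and was named after its values were seen. It had at most 1.06 normalised counts in the 10 other livers and 55.9 and 21.4 in aged replicates 3 and 4. It was not called over all aged livers (DESeq2 adjusted p = 0.35), and edgeR gave an adjusted p of 1.1e-08. Cyp2b10 (ENSMUSG00000030483, chromosome 7, 25897620 to 25926624), the phenobarbital-inducible gene on which CAR is usually read, was at 10.6, 10.2, 7.11 and 9.76 in young replicates 1 to 4, at 40.7, 29.6, 22.1 and 17.0 in middle-aged livers and at 12.0, 12.5, 123.2 and 59.0 in aged livers. All middle-aged and aged livers lay above all young livers, by little for aged replicates 1 and 2. Its log2 fold change of aged against young was 2.46 (SE 0.65, DESeq2 adjusted p = 0.010), 0.24 within replicates 1 and 2 and 3.42 within replicates 3 and 4 (DESeq2 adjusted p = 0.9999 and 1.7e-05). Middle-aged against young livers gave 1.54 (SE 0.66, DESeq2 adjusted p = 0.14), and edgeR gave an adjusted p of 0.00082.

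The bases just before the starts of these 3 neighbouring genes are shown because the genes moved in the same aged livers. The stretches are the 150 bases upstream of the RefSeq start on the GRCm38.p6 plus strand, at chr7:26173259-26173408 for Cyp2b9, chr7:26061345-26061494 for Cyp2b13 and chr7:25897508-25897657 for Cyp2b10. Capitals mark bases that differ from Cyp2b9 in a pairwise alignment.
Cyp2b9: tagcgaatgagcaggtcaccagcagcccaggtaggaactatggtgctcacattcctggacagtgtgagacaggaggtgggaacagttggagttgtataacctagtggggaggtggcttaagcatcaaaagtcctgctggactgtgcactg
Cyp2b13: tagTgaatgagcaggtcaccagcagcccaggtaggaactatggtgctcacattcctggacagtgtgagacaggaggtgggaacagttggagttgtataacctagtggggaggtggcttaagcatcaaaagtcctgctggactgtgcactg
Cyp2b10: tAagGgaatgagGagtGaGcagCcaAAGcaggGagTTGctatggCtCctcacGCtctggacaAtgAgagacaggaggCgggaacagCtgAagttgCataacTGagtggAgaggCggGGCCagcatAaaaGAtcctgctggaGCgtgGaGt
Cyp2b13 equals Cyp2b9 at 149 of these 150 bases and Cyp2b10 at 112, with 35 substituted, 3 inserted and 3 missing. The nuclear receptor motif AGGTCA, searched on both strands, begins at position -138 in Cyp2b9 and Cyp2b13 and is not in the Cyp2b10 window. The motif also begins at position -121 in Cyp2b19 and -164 in Cyp2b23, which had 0 counts in every liver. Its presence is therefore not particular to the Cyp2b genes that moved. AGGTCA occurs in 16.3% of all 32851 RefSeq promoter windows of 300 bases (250 before and 50 after the start) and in 18 of the 55 members with such a window.

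Over the coding sequence Cyp2b9 and Cyp2b13 are 92.7% identical and Cyp2b9 and Cyp2b10 87.8%. Of the 50-base windows of their transcripts, 11.2% in Cyp2b9, 27.3% in Cyp2b13 and 9.70% in Cyp2b10 also occur in other genes. A read within such a window cannot be assigned to 1 of them, while a longer read may be. The counts of Cyp2b13 are therefore the least certain of the 3.

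Cyp2a22 (ENSMUSG00000091867, chromosome 7, 26931631 to 26939384) was at 2.12, 0, 9.48 and 5.86 normalised counts in young replicates 1 to 4, at 15.9, 16.2, 13.3 and 9.02 in middle-aged livers and at 2.01, 17.3, 57.7 and 38.4 in aged livers. Aged replicates 3 and 4 were the highest of all 12 livers and aged replicate 1 lay in the young range. Its log2 fold change of aged against young was 2.72 (SE 0.83, DESeq2 adjusted p = 0.034), and the call was lost without aged replicate 3, aged replicate 4, young replicate 1 or young replicate 2. Within replicates 1 and 2 the log2 fold change was 3.12, with no adjusted p, and within replicates 3 and 4 it was 2.66 (DESeq2 adjusted p = 0.018). The call of Cyp2b10 was lost without aged replicate 3. Cyp2a22 shares 25.7% of its windows with Cyp2a12, whose level was far higher, at 3905 to 6089 normalised counts.

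Other members that differed between the aged livers were chosen for mention after their values were seen. Cyp2a4, another gene made mainly by female liver, was at 0 in all young livers, at most 2.004 in middle-aged livers and at 0, 0.963, 8.74 and 5.36 in aged replicates 1 to 4. Cyp2a4 shares 38.0% of its windows with other genes, mostly with Cyp2a5, whose level was far higher, at 2045 to 7662 normalised counts. The low counts of Cyp2a4 are therefore uncertain. Cyp2c38 was at 125 and 250 in aged replicates 1 and 2 and at 678 and 542 in aged replicates 3 and 4 (aged against young, log2 fold change 1.35, SE 0.54 and DESeq2 adjusted p = 0.15, with an edgeR adjusted p of 2.9e-20). In the opposite direction, Cyp2d12 was at 124, 86.7, 6.99 and 11.6 in aged replicates 1 to 4, against 10.7 to 41.5 in young livers, and Cyp2d11 was at 34.1, 14.5, 0.874 and 4.47, against 5.86 to 20.1. The log2 fold change of Cyp2d12 in aged against young livers was 2.52 within replicates 1 and 2 (DESeq2 adjusted p = 0.00099) and -1.48 within replicates 3 and 4 (DESeq2 adjusted p = 0.50), and over all livers 1.37 (DESeq2 adjusted p = 0.34, edgeR adjusted p = 0.00016). The difference between the pairs of replicates was not tested. Cyp2d11 and Cyp2d12 share 37.2% and 17.9% of their windows with other genes.

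Cyp3a11 (ENSMUSG00000056035, chromosome 5, 145854426 to 145879964), the main PXR target of mouse liver and a counterpart of the human enzyme that clears many drugs, varied widely among the livers of each age. It was at 5052, 2183, 5632 and 8476 normalised counts in young replicates 1 to 4, at 5757, 4704, 3597 and 3335 in middle-aged livers and at 1883, 1939, 7467 and 7033 in aged livers. The aged livers fell into a low pair and a high pair on both sides of the middle-aged ones, and young replicate 2, the liver with the high mitochondrial share, was the lowest young liver. No comparison over all livers was called (aged against young, log2 fold change -0.22, SE 0.54 and DESeq2 adjusted p = 0.91). Within replicates 3 and 4 alone, middle-aged livers were lower than young ones (log2 fold change -1.04, DESeq2 adjusted p = 1.8e-08) and aged livers were higher than middle-aged ones (1.07, DESeq2 adjusted p = 3.4e-09), while replicates 1 and 2 gave 0.53 and -1.45 (DESeq2 adjusted p = 0.96 and 0.37). The other Cyp3a genes with a mean above 1000, Cyp3a25 and Cyp3a13, were at 1565 to 3231 and 1014 to 1472 and were not called (aged against young, log2 fold changes 0.35 and 0.27, DESeq2 adjusted p = 0.25 and 0.055).

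**Figure D3:**
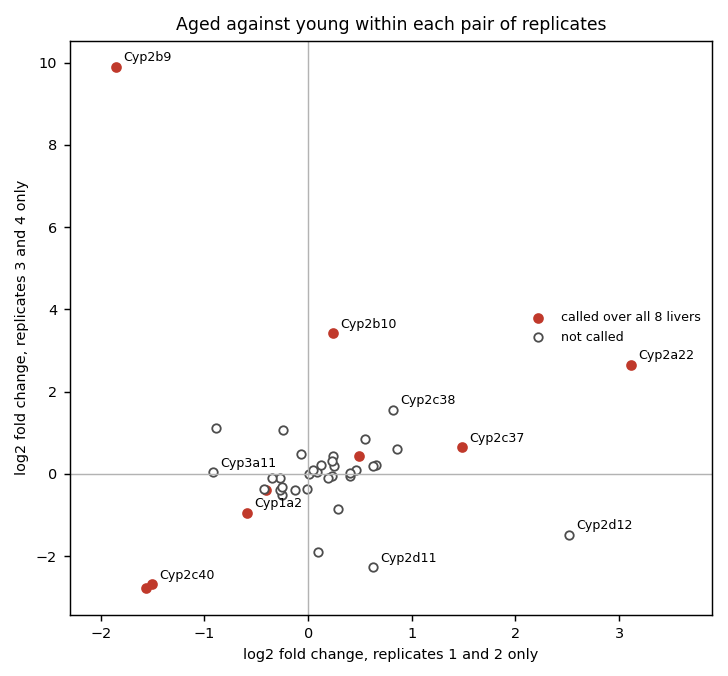
Log2 fold change of aged against young livers for members whose mean reached 10 normalised counts, with replicates 1 and 2 only on the horizontal axis and replicates 3 and 4 only on the vertical axis. Filled points were called over all 8 livers. Cyp2b9 lies at -1.85 and 9.90, Cyp2d12 at 2.52 and -1.48, and Cyp1a2, Cyp2c37 and Cyp2c40 have the same sign on both axes.

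The sex of the animals was checked because several of these genes are known to be female-predominant. The female transcript Xist had at most 2.01 normalised counts in any liver, and the Y-linked Ddx3y, Kdm5d, Eif2s3y and Uty were at 577 to 788, 115 to 178, 329 to 506 and 79.3 to 137, so all 12 livers match the stated male sex. Of 9 female-predominant P450 genes listed, 4 could be tested between aged and young livers, of which Cyp2b9 was higher and Cyp2c40 and Cyp2c69 were lower. The log2 fold changes of Cyp2b9, Cyp2b13, Cyp2c40 and Cyp2c69 were 6.10, 5.83, -1.99 and -2.06, and Cyp2b13 was not called. Their median of 1.92 (against -0.0003 for all genes) therefore lies between genes of opposite direction and describes none of them. The summed level of all 9 listed genes was 172 to 927 in young livers, 30.0 to 104 in middle-aged and 178 to 782 in aged livers. This sum also mixes genes of opposite direction. In young replicate 3 (sum 927) Cyp2c40 was at 712 and Cyp2b9 at 0. In aged replicate 3 (sum 782) Cyp2c40 was at 67.3 and Cyp2b9 at 629. Hsd3b5, a male-predominant liver gene added after values were seen, was at 3188, 3162, 932 and 1749 in aged replicates 1 to 4, against 4214 to 4411 in young and 1986 to 2705 in middle-aged livers (aged against young, log2 fold change -0.95, SE 0.33 and DESeq2 adjusted p = 0.086).

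Markers of cell types are given beside these values, and their part in them was not tested. In aged replicates 1 to 4 the hepatocyte markers summed to 710979, 785609, 815232 and 925971, a sum made up mostly of Alb. Of the other hepatocyte markers, Tat was at 9716, 14442, 7707 and 7474, Apoa1 at 124573, 87645, 59484 and 88546 and Ttr at 51062, 49632, 50062 and 55924, so the markers did not share 1 order of livers. In aged replicates 1 to 4 the 4 macrophage markers summed to 2043, 1815, 1539 and 1864, the 4 endothelial markers to 1273, 1186, 1239 and 1302, the 4 stellate markers to 387, 423, 572 and 547 and the 4 lymphoid markers to 106, 85.7, 133 and 104. Both stellate sums of replicates 3 and 4 exceeded those of replicates 1 and 2, and all 4 lay within the young range of 257 to 620. The 4 biliary markers summed to 240, 116, 356 and 159. Of all these lists 1 gene was called between aged and young livers, the biliary marker Sox9 (log2 fold change 0.86, SE 0.24 and DESeq2 adjusted p = 0.017).

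**Figure D4:**
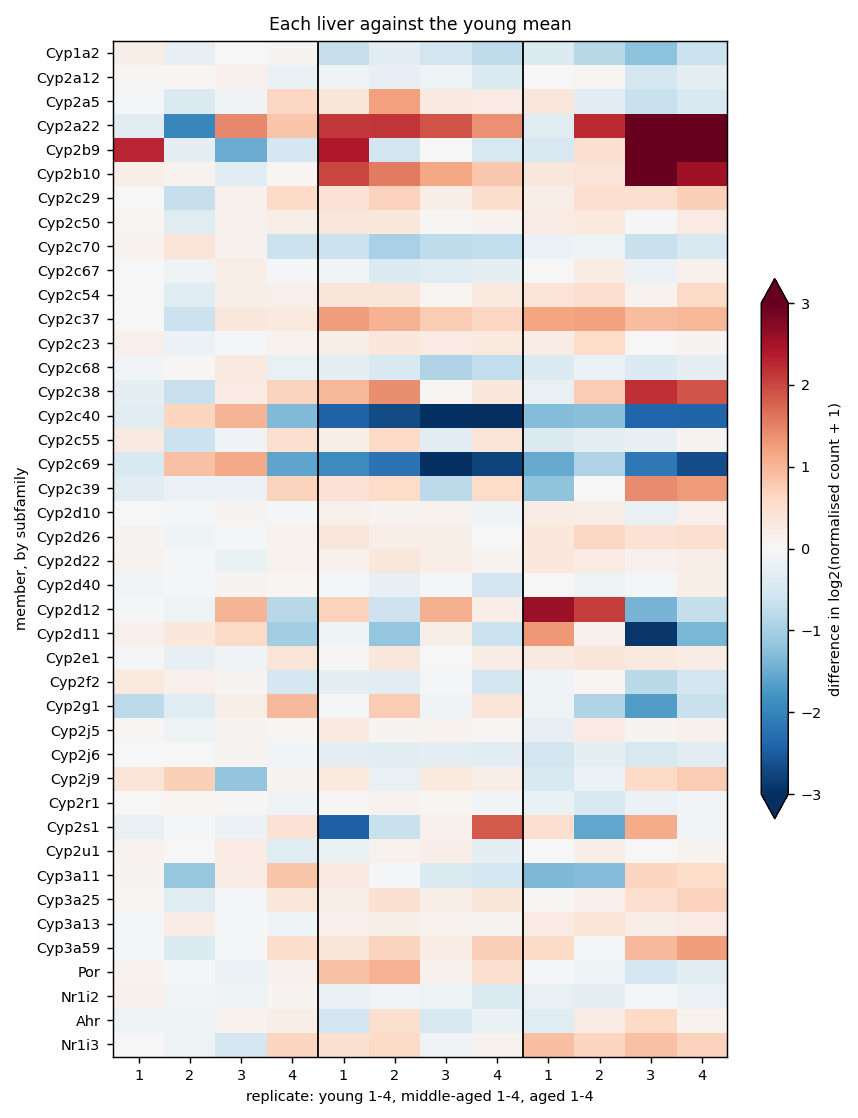
Difference in log2(normalised count + 1) between each of the 12 livers (columns) and the mean of the 4 young livers for 42 members (rows, by subfamily). Red is higher and blue lower, and the scale is capped at 3 in both directions. Cyp2b9, Cyp2b10 and Cyp2a22 are most red in aged replicates 3 and 4, and Cyp2c40 and Cyp2c69 are blue in all middle-aged livers.

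The Cyp2c subfamily held 5 of the 12 members called, in both directions. As the largest subfamily, it also held 13 of the 42 members whose mean reached 10 normalised counts. Cyp2c40 (ENSMUSG00000025004, chromosome 19, 39767071 to 39812814), an arachidonic acid hydroxylase on the female-predominant list, was at 279, 548, 712 and 140 normalised counts in young replicates 1 to 4, at 64.5, 53.9, 20.3 and 36.1 in middle-aged livers and at 142, 146, 67.3 and 65.3 in aged livers. All middle-aged livers lay below all others, and young replicate 4 lay just below the higher aged pair. It was 9.61-fold lower in middle-aged than in young livers (log2 fold change -3.26, SE 0.55 and DESeq2 adjusted p = 1.7e-06) and 3.98-fold lower in aged than in young livers (log2 fold change -1.99, SE 0.54 and DESeq2 adjusted p = 0.013). Within pairs of replicates aged against young gave -1.51 (DESeq2 adjusted p = 0.00084) and -2.68 (DESeq2 adjusted p = 0.075). Aged against middle-aged livers gave 1.27 (SE 0.55, DESeq2 adjusted p = 0.35).

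Cyp2c69 (ENSMUSG00000092008, chromosome 19, 39842814 to 39886799), the next gene along the cluster and also on the female-predominant list, had the same order of livers within each age as Cyp2c40. It was at 70.1, 178, 213 and 31.2 normalised counts in young replicates 1 to 4, at 24.8, 19.8, 7.06 and 13.0 in middle-aged livers and at 33.1, 50.1, 21.0 and 14.3 in aged livers. Its log2 fold changes against young livers were -2.93 in middle-aged (SE 0.56, DESeq2 adjusted p = 4.3e-05) and -2.06 in aged livers (SE 0.55, DESeq2 adjusted p = 0.011). The calls of Cyp2c40 and Cyp2c69 between aged and young livers were lost without aged replicate 3, aged replicate 4, young replicate 2 or young replicate 3.

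Whether these are separate measurements cannot be told from the counts, because the genes are close copies. Of the 50-base windows of their transcripts, 72.1% in Cyp2c40 and 54.8% in Cyp2c69 also occur in other genes, mostly in each other and in Cyp2c67. The upstream stretches are shown to let a reader see how close the copies are. They lie on the minus strand of GRCm38.p6, at chr19:39812815-39812964 for Cyp2c40 (positions -150 to -1 from the RefSeq start) and chr19:39886800-39886949 for Cyp2c69 (positions -180 to -31), since the annotated starts are offset by 30 bases. Capitals mark the bases that differ from Cyp2c40.
Cyp2c40: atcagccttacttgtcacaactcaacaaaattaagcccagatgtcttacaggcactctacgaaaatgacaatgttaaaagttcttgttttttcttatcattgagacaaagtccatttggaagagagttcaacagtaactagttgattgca
Cyp2c69: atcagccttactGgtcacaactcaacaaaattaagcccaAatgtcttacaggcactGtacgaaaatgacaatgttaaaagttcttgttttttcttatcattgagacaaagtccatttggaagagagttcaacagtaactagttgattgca
The stretches are equal at 147 of 150 bases.

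The coding stretch around the cysteine that binds the heme iron, which carries the signature of the P450 family, shows how the called Cyp2c genes relate to their neighbours. The 60 bases span the junction of exons 8 and 9 on GRCm38 and were read from the GENCODE M21 transcripts. They run from chr19:39767456-39773848 in Cyp2c40 (minus strand), chr19:39843042-39849370 in Cyp2c69 (minus), chr19:39609227-39615644 in Cyp2c67 (minus), chr19:39689219-39699285 in Cyp2c68 (minus) and chr19:40009932-40011761 in Cyp2c37 (plus), introns included. Capitals mark bases that differ from Cyp2c40.
Cyp2c40: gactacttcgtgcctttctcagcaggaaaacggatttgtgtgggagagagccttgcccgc
Cyp2c69: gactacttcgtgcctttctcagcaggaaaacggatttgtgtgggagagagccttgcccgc
Cyp2c67: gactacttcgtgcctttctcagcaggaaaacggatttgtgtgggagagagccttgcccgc
Cyp2c68: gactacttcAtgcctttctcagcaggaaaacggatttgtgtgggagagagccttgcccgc
Cyp2c37: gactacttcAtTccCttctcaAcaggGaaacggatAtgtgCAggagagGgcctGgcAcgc
Cyp2c40, Cyp2c69 and Cyp2c67 are identical here, Cyp2c68 differs at 1 base and Cyp2c37 at 11. A read that lies within these 60 bases cannot separate the first 3 genes, while a longer read that reaches other bases may. Of the 3, Cyp2c67 was by far the most abundant, at 3577 to 5522 normalised counts. Cyp2c67 itself was not called in any comparison (middle-aged against young, log2 fold change -0.28, SE 0.11 and DESeq2 adjusted p = 0.10).

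Cyp2c68 (ENSMUSG00000074882, chromosome 19, 39688834 to 39741054) was lower in middle-aged livers. It was at 2387, 2565, 3027 and 2149 normalised counts in young replicates 1 to 4, at 2097, 1817, 1338 and 1510 in middle-aged livers and at 1889, 2213, 1879 and 2079 in aged livers. The lowest young liver exceeded the highest middle-aged liver by little. The log2 fold change of middle-aged against young was -0.58 (SE 0.14, DESeq2 adjusted p = 0.0033), and within replicates 1 and 2 it was -0.34 (DESeq2 adjusted p = 0.60) and within replicates 3 and 4 -0.87 (DESeq2 adjusted p = 1.0e-05). Aged against young gave -0.33 (SE 0.14, DESeq2 adjusted p = 0.21). Cyp2c68 shares 43.3% of its windows with other genes, mostly with Cyp2c40, so it may not be a separate measurement either.

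Cyp2c70 (ENSMUSG00000060613, chromosome 19, 40153353 to 40187333), the enzyme that makes the muricholic acids typical of mouse bile, was at 9345, 11339, 9451 and 5525 in young replicates 1 to 4. It was at 5475, 4422, 5056 and 5150 in middle-aged livers and at 7663, 7733, 5423 and 6274 in aged livers. Young replicate 4 was close to the middle-aged livers, and the aged livers overlapped both other ages. It was 1.77-fold lower in middle-aged than in young livers (log2 fold change -0.83, SE 0.18 and DESeq2 adjusted p = 0.00076), with -1.06 within replicates 1 and 2 (DESeq2 adjusted p = 1.7e-06) and -0.56 within replicates 3 and 4 (DESeq2 adjusted p = 0.45). Aged against young gave -0.40 (SE 0.18, DESeq2 adjusted p = 0.25).

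Cyp2c37 (ENSMUSG00000042248, chromosome 19, 39992424 to 40012243), whose enzyme acts on arachidonic acid, was the member whose call held most widely. It was at 2129, 1335, 2640 and 2568 normalised counts in young replicates 1 to 4, at 4992, 4286, 3566 and 3205 in middle-aged livers and at 4776, 4886, 3975 and 4187 in aged livers. Every older liver lay above every young one. It was 2.05-fold higher in aged than in young livers (log2 fold change 1.04, SE 0.19 and DESeq2 adjusted p = 3.4e-05) and 1.85-fold higher in middle-aged than in young livers (log2 fold change 0.89, SE 0.19 and DESeq2 adjusted p = 0.00053). The log2 fold change of aged against young was 1.48 within replicates 1 and 2 (DESeq2 adjusted p = 6.2e-09) and 0.65 within replicates 3 and 4 (DESeq2 adjusted p = 2.2e-06). The neighbours Cyp2c50 and Cyp2c54, with which it shares part of its 30.1% of shared windows, were at 7231 to 11886 and 2547 to 4810 and were not called (aged against young, log2 fold changes 0.17 and 0.39, DESeq2 adjusted p = 0.59 and 0.074), although edgeR called Cyp2c54 (adjusted p = 0.026).

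**Figure D5:**
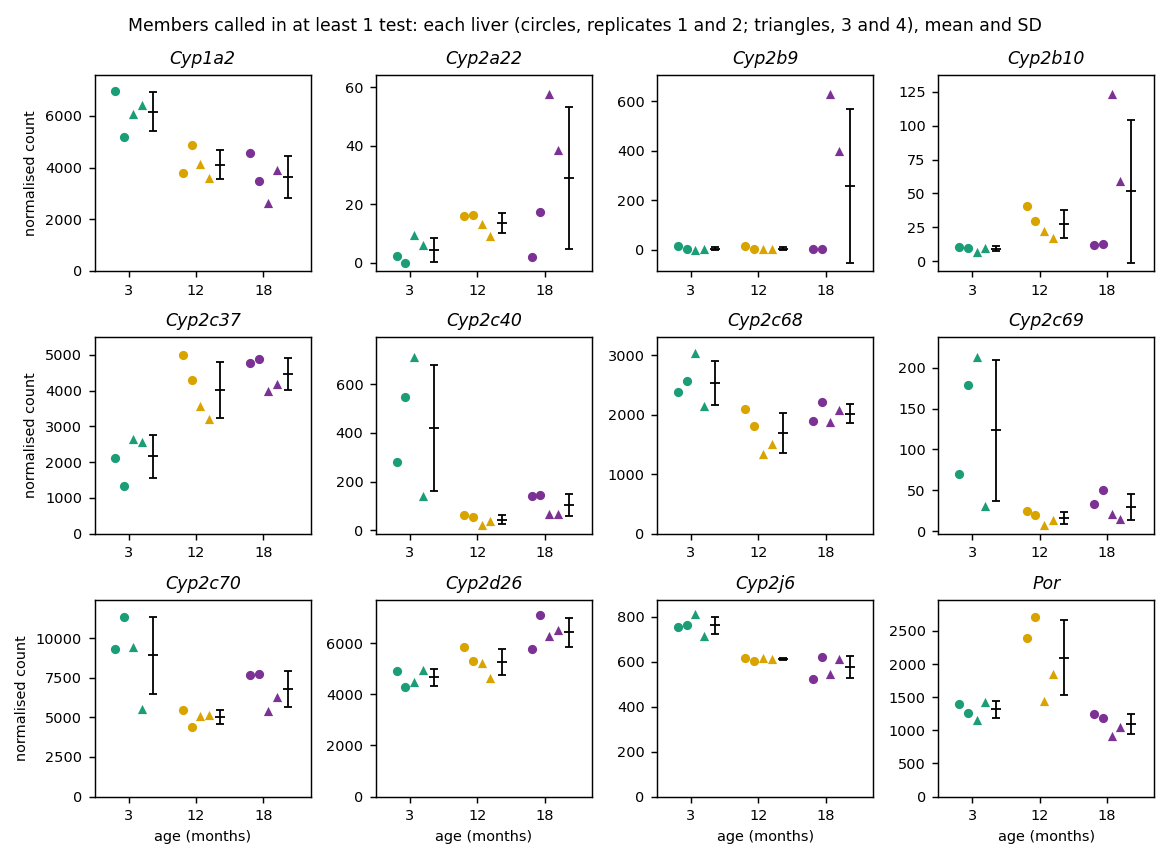
Normalised counts of the 12 members called in at least 1 test, by age in months. Each point is a liver (circles, replicates 1 and 2; triangles, replicates 3 and 4), and the black bar gives the mean and SD of 4 livers; axes are linear. For Cyp1a2 and Cyp2c37 the young livers do not overlap the older ones, and for Cyp2b9 the aged mean rests on the livers at 398 and 629.

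Smaller changes were called in Cyp2d26 and Cyp2j6. Cyp2d26 (ENSMUSG00000022445, chromosome 15, 82790101 to 82794294) was at 4921, 4283, 4488 and 4974 normalised counts in young replicates 1 to 4 and at 5778, 7114, 6296 and 6506 in aged livers, with middle-aged livers at 4644 to 5873. The aged livers lay above all young livers (1.38-fold higher, log2 fold change 0.46, SE 0.093 and DESeq2 adjusted p = 0.00015). The increase was of like size within both pairs of replicates, with log2 fold changes of 0.49 in replicates 1 and 2 (DESeq2 adjusted p = 0.24) and 0.43 in replicates 3 and 4 (DESeq2 adjusted p = 0.0069).

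Cyp2j6 (ENSMUSG00000052914, chromosome 4, 96516138 to 96553661) was at 757, 764, 810 and 715 in young replicates 1 to 4, at 619, 605, 616 and 610 in middle-aged livers and at 523, 622, 544 and 614 in aged livers. Every young liver lay above every older liver, and the middle-aged livers were nearly equal. The log2 fold changes against young livers were -0.40 in aged (SE 0.081, DESeq2 adjusted p = 0.00015) and -0.31 in middle-aged livers (SE 0.080, DESeq2 adjusted p = 0.0051). With edgeR neither comparison was called (adjusted p = 0.061 and 0.23), and the middle-aged comparison was also lost with the replicate block and without young replicate 3. Neither was called within replicates 1 and 2 or within replicates 3 and 4. Aged against young gave -0.41 and -0.40 there (DESeq2 adjusted p = 0.68 and 0.21). Middle-aged against young gave -0.31 and -0.32 (DESeq2 adjusted p = 0.78 and 0.36). The E-box CACGTG, the site of clock factors, begins at position -44 of Cyp2j6; it occurs in 7.15% of all promoter windows and in 2 of the 55 members, the other being Nr1i3.

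Most of the abundant members were not called at any age. Cyp2e1 was at 44685 ± 8743 normalised counts (SD, n = 4) in young livers, 48926 ± 5578 in middle-aged and 53798 ± 1997 in aged livers (aged against young, log2 fold change 0.27, SE 0.13 and DESeq2 adjusted p = 0.26). Cyp2c29 was at 11522 ± 3943, 15238 ± 2153 and 15246 ± 2236, with its lowest value, 6843, in young replicate 2 (0.40, SE 0.21 and DESeq2 adjusted p = 0.32, and 0.046 by edgeR). Middle-aged against young livers gave 0.88 for Cyp2c29 within replicates 1 and 2 (DESeq2 adjusted p = 0.0056) and -0.012 within replicates 3 and 4 (DESeq2 adjusted p = 0.99). Cyp2d10 was at 7439 ± 297, 7787 ± 579 and 7947 ± 1072, and Cyp2d22 was at 1660 ± 161, 1896 ± 142 and 1933 ± 111. Cyp2j5, the most abundant Cyp2j gene, was at 5423 ± 404, 5912 ± 442 and 5641 ± 761. None of these genes was called by DESeq2.

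Cyp2a5, the coumarin hydroxylase, was at 2419 to 4994 in young livers, 3862 to 7662 in middle-aged and 2045 to 4144 in aged livers. Its comparisons were not called by DESeq2 (aged against middle-aged, log2 fold change -0.82, SE 0.33 and DESeq2 adjusted p = 0.28), and edgeR called that one (adjusted p = 1.2e-08) and middle-aged against young (adjusted p = 0.00049). The latter was 1.10 within replicates 1 and 2 (DESeq2 adjusted p = 0.0042) and -0.055 within replicates 3 and 4 (DESeq2 adjusted p = 0.95). Cyp2a12 was at 5625 ± 538, 4801 ± 468 and 4969 ± 895. Cyp2f2, which activates naphthalene, was at 6341 ± 1407, 5069 ± 722 and 4958 ± 1353 (aged against young, log2 fold change -0.35, SE 0.20 and DESeq2 adjusted p = 0.39). Cyp2c23 was at 2360 ± 244, 2811 ± 120 and 2753 ± 482.

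The remaining subfamilies were low and none was called. Cyp2r1, which adds the first hydroxyl group to vitamin D, was at 163 ± 7.39, 167 ± 8.90 and 140 ± 14.9 normalised counts, and Cyp2u1, a fatty acid hydroxylase, was at 345 ± 59.9, 334 ± 53.3 and 360 ± 22.7. Cyp2s1 ranged from 8.94 to 192, both extremes in middle-aged livers, and Cyp2g1 from 3.496 to 27.3. Cyp2t4 had at most 3.82 and Cyp2ab1 at most 4.42 normalised counts in any liver, close to what 3 counts represent. Cyp2c66 and Cyp2j12, named after their values were seen, had their highest value in young replicate 3, the library with the most genes detected, at 11.8 and 5.92, and at most 0.993 elsewhere. The other members with a mean of 10 to 1000 were Cyp2d40 (387 to 650 normalised counts), Cyp2c55 (36.9 to 88.9), Cyp3a59 (28.0 to 91.2), Cyp2j9 (13.0 to 52.7) and Cyp2c39 (7.03 to 48.1), without a call in these comparisons. Cyp2j8, Cyp2j13, Cyp2c65, Cyp3a16, Cyp3a44 and Cyp3a57 had at most 2.37 normalised counts in any liver.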

How the data were processed

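The authors deposited 1 table of raw read counts per gene for 12 livers, whose columns were matched to samples by name. Per the submitters' processing notes, reads were aligned with STAR 2.5.2b and counted with featureCounts against mm10/GRCm38; strand and multimapping settings are not given in the sources used here. The labels describe library preparation for young and old livers only, and the design text names 3 replicates per age where the labels list 4, so how these livers were prepared is uncertain. Library sizes and tests did not include the spike-in rows. All genes were fitted with DESeq2 1.42.0 (R 4.3.3) on age over 12 libraries, with median-of-ratios size factors, Wald tests for each pair of ages, a likelihood ratio test over ages, independent filtering and an adjusted p threshold of 0.05 (Benjamini-Hochberg). The script was tested on simulated data. edgeR 4.0.16 was an alternative, besides TMM factors, low-count filters, the replicate block, each spike-in set, and leaving out each library; their effect is given in the closing section. The members and gene lists were chosen with earlier results of these data known. Named members were the regulators, the inducible or most abundant genes, every called gene, members with a mean of at least 1000, and the most abundant gene of each subfamily. List genes were named where they passed the threshold, besides Dbp, Tef, Hlf, Alas1, Arnt and Rxra; list genes named for an unadjusted p were chosen after their values were seen. Upstream sequences came from RefSeq (GRCm38.p6), which held a promoter for 55 of 64 members. Total gene counts of 8124312 to 10527159 set the precision, and replicates are separate animals. Same-numbered livers did not deviate together (correlations of -0.30 to 0.16 over 8888 genes, 2 of 12 pairs above 0.1), so no pairing was used. 1 result among the listed genes is not reported here.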

Additional observations from a re-analysis of the deposited data

Results flagged for a closer look

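In 3 of 110 groups of 4 livers, 1 liver lay farther from the others than Dixon's 95% limit allows, where chance alone would give about 5.5. Cyp2a5, the coumarin hydroxylase, was at 7662 normalised counts in middle-aged replicate 2, against 3862 to 4217 in the other middle-aged livers. Cyp2b9 was at 12.7 in young replicate 1, against 0 to 1.27 in the other young livers. Cyp2b9 was at 13.9 in middle-aged replicate 1, against 0.898 to 1.77 in the other middle-aged livers.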

How the results depend on the processing

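Counts over all genes stand in parentheses, since they moved under the same settings. Of 9 members called between aged and young livers (484), the number was 14 with edgeR (880), 4 with replicates 1 and 2 only (137), 5 without both aged livers of replicates 3 and 4 (183) and 16 without both aged livers of replicates 1 and 2 (1142), the last pair of settings being chosen after seeing the data. Leaving out 1 library gave 5 to 12, with 5 without aged replicate 3 (237) and 5 without aged replicate 4 (321), and 6 without young replicate 2 (258) or 3 (337). Of 8 called between middle-aged and young livers (727), 5 were called with replicates 3 and 4 only (305), 12 with edgeR (1154), and 7 to 9 when 1 library was left out. For aged against middle-aged livers, where 1 was called (117), the number was 2 with the replicate block (426), 8 with edgeR (446), 2 with replicates 1 and 2 only (34), 8 with replicates 3 and 4 only (307), 2 with the spike-in set as a covariate (109) and 5 without both aged livers of replicates 1 and 2 (362). Leaving out 1 library gave 1 to 4, with 4 without aged replicate 1 (198) and 2 without aged replicate 2 (107), aged replicate 3 (56) or middle-aged replicate 1 (73). Over the 3 ages, 11 (865) became 17 with edgeR (1494) and 18 without both aged livers of replicates 1 and 2 (1628), and 9 to 14 when 1 library was left out. The replicate block gave 9, 7, 2 and 9 calls in these 4 tests: between middle-aged and young livers Cyp2j6 was lost, in aged against middle-aged livers Cyp2b9 was added, and over the 3 ages Cyp2b9 and Cyp2b10 were lost. The log2 fold change of Cyp2b9 between aged and young livers turned from 6.10 to -1.85 with replicates 1 and 2 only and to -0.95 without both aged livers of replicates 3 and 4. The causes were not tested. The calls of Cyp2c37 against young livers, of Cyp2c40 in middle-aged livers and of Por in aged against middle-aged livers held under every alternative run that gave an adjusted p (19 and 17, 17, and 19 alternatives). That of Cyp2c69 in middle-aged livers held under the 14 alternatives that gave an adjusted p, while 3 gave none. With at most 3.82 normalised counts behind a count of 0, differences in the lowest members were not detectable at this depth.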
